A study of Mus musculus with 15 samples.

Results

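The 62 probes described here belong to a microRNA array read with RNA of mouse CD4 T cells. Their mean signal was lower than naive by at least 1 log2 unit at 65 h of activation, and by less at 24 h. They were taken from the 2191 probes of the deposited table of log2 values, on an array that holds 2500 probes. The rule asked for a mean at 65 h at or below the naive mean by 1 log2 unit, and a mean at 24 h within 1 log2 unit of the naive mean. It also leaves out a fixed list of probe numbers, and 0 of the 62 probes that met both limits were on that list. The naive, 24 h and 65 h values chose the members, so every difference between these groups is given as a description, with no test. No file used here gives a microRNA name or sequence for a probe ID, so probes appear by ID and no sequence is shown.

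MicroRNAs are short RNAs that guide Argonaute proteins to messenger RNAs, which are then translated less or broken down. Naive T cells carry a large microRNA pool, and activation through the T cell receptor is known to lower many of its members while a few are induced. Argonaute protein itself is known to be degraded after T cell activation.

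Naive CD4 T cells came from spleen and lymph nodes of C57/B6 mice aged 6 to 8 weeks, picked with beads coated for CD4 and left untreated (2 arrays). The same kind of cells were held on plates coated with antibodies to CD3, a signalling chain of the T cell receptor, and to the costimulatory receptor CD28 for 6, 12, 24, 42 or 65 h (2 arrays each). Cells stimulated for 65 h, taken off the plate and rested in medium with IL-2 until day 7 gave 1 array. Rested day 7 cells put back on the same antibodies for 18 h gave 2 arrays. Each array took 50 ng of RNA labelled with Cy3. Whether arrays of 1 group stem from different animals or cultures is not in the labels, and p-values measure the spread between these arrays only, which may be technical. The labelled cell type was not checked against marker microRNAs, because the probes carry no names here.

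The arrays lay on 2 slides that held 1 array of each group, and day 7 had its only array on slide 1. The first 42 h array stood apart in its scanner file, with a median spot brightness of 466 against 21 to 23 on the other 14, and the scanner software called 49.6% of its spots non-uniform. Its column of the value table did not follow that file (Spearman correlation 0.459, against at least 0.999 for the others) and correlated with the second 42 h column at r = 0.990. Levels below come from the value table, where both 42 h columns are given. Tests below use the scanner signal of the other 14 arrays, so that 42 h rests there on 1 array. That signal was scaled to the 75th percentile of the 571 probes detected on all 14 arrays, and tested in limma over the 882 probes detected on both arrays of at least 1 group.

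All 62 members were detected above background on both naive arrays and on both 6 h arrays, and all 62 were among the tested probes. Later, 50 of the 62 were detected on both 65 h arrays, and 6 on neither. On all 14 arrays 47 were detected. Their naive means in the value table ran from 5.51 to 14.28 log2, with a median of 7.71, where the 693 tested probes of that table had a median of 5.94. A probe near background cannot be lower by 1 log2, so the rule favours bright naive levels. On the array 37 members have 7 spots and 25 have 6.

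Median levels of the 62 probes lay below naive at each time from 6 h on, a course that the choice of members partly fixes. In the value table the median log2 difference of a member from naive was -0.25 at 6 h and -0.41 at 12 h. It reached -0.74 by 24 h, -1.10 by 42 h and finally -1.45 after 65 h. The 693 tested probes had medians of -0.08, -0.05, -0.06, -0.12 and 0.04 at these times. At 24 h all 62 members were already below their naive mean, with differences from -0.99 to -0.17. Both 24 h arrays lay below both naive arrays for 55 members, where 38.4% of the 693 tested probes did so. Both 65 h arrays lay below both 24 h arrays also for 55, where 32.6% of tested probes did so, and below both naive arrays for 61, where 36.2% did so. These contrasts were used by the rule, so nothing is read from them. By 24 h the median member had covered 50.0% of the difference it showed at 65 h, and members ran from 12.4% to 92.3%. In group means 41 of the 62 were lower at each successive time from naive to 65 h. A 24 h difference above -0.5 was seen in 10 members. The 24 h limits would have let in values above naive, and 0 members had one. Array by array, the median member stood at -0.39 and -0.12 from the naive mean at 6 h (slide 1, slide 2), -0.46 and -0.29 at 12 h, and -0.72 and -0.77 at 24 h. It stood at -1.23 and -1.04 at 42 h, -1.60 and -1.19 at 65 h, and -1.22 and -1.20 after restimulation on the same slides. Slide 1 was the lower of the pair in each of these groups except 24 h.

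Probes on either side of the limits differed little, as probes picked for lying nearest to a limit must. Just inside the 65 h limit lay UCSF033_000359 and UCSF033_001154, with 65 h minus naive differences that both round to -1.01. Just outside lay UCSF033_000361 at -0.99 and UCSF033_000640 at -0.98. Just inside the 24 h limit lay UCSF033_000681 at -0.99 and UCSF033_001358 at -0.98, and just outside lay UCSF033_001340 and UCSF033_000854. The upper limit at 24 h removed 0 probes, since no probe that met the 65 h limit lay above it. The members nearest to it, UCSF033_001372 and UCSF033_001376, lay at -0.17 and -0.19.

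UCSF033_000517 was a bright member with one of the largest differences at 65 h. Its value table levels were 11.62 and 11.55 log2 on the naive arrays, 11.54 and 11.41 at 6 h, 11.48 and 11.14 at 12 h, and 10.95 and 10.46 at 24 h. They were 9.75 and 10.20 at 42 h, 9.14 and 9.86 at 65 h, 10.55 at day 7, and 9.31 and 10.19 in restimulated cells. Naive, 24 h and 65 h arrays did not overlap, and the day 7 array lay above both 65 h arrays. Its mean difference from naive was -0.89 at 24 h and -2.09 at 65 h.

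UCSF033_001382 had the lowest 65 h value relative to naive, at -2.16, but its arrays differed by slide. On slide 1 its naive, 6 h, 12 h and 24 h levels were 7.82, 7.77, 7.78 and 7.19 log2, and on slide 2 they were 6.43, 6.08, 5.85 and 5.53. At 65 h the arrays read 4.97 and 4.96, and the day 7 and restimulated arrays lay between 4.87 and 5.05. Within slides its 65 h difference was -2.86 on slide 1 and -1.47 on slide 2, so its size differed between the slides.

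UCSF033_000746 and UCSF033_000403 had the highest naive means of the 62, at 14.28 and 14.04 log2. UCSF033_000746 read 14.16 and 14.41 on the naive arrays, 13.29 and 13.45 at 24 h, and 12.83 and 12.45 at 65 h. It stayed at 12.66 at day 7 and at 12.49 and 12.63 after restimulation. UCSF033_000403 read 14.37 and 13.70 on the naive arrays, 13.32 and 12.87 at 24 h, and 11.90 and 12.33 at 65 h. At day 7 it stood at 13.27, back near its 24 h level, and after restimulation at 12.01 and 12.26. Its day 7 array lay above both of its 65 h arrays, and the day 7 array of UCSF033_000746 lay between its 65 h arrays.

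UCSF033_001372 and UCSF033_001376 were the members with the smallest part of their 65 h difference reached at 24 h in the value table. UCSF033_001372 read 8.04 and 8.34 on the naive arrays, 7.99 and 8.05 at 24 h, 7.76 and 7.99 at 42 h, and 7.23 and 6.34 at 65 h. UCSF033_001376 read 7.90 and 8.06, then 7.82 and 7.77, then 7.49 and 7.82, then 7.17 and 6.19 in the same order of groups. Both covered less than 15% of their 65 h difference by 24 h (12.4% and 14.3%), and for both the lowest level at 65 h was on the slide 1 array. After restimulation UCSF033_001372 read 8.06 and 7.14, and UCSF033_001376 read 7.77 and 7.05. On the scaled scanner signal they differed from naive by 0.31 and 0.27 at 42 h, and by -0.70 and -0.65 at 65 h.

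The median member lay below naive on both slides, with a larger drop on slide 1 at 65 h. The naive, 24 h and 65 h means over both slides chose the members, so a drop on each slide is largely fixed. At 24 h and after restimulation (-1.12 on slide 1, -1.29 on slide 2) the drop was larger on slide 2. At 65 h the median member lay below the naive array of its slide by -1.52 log2 on slide 1 and -1.31 on slide 2, and 59 and 49 members were at or below -1. At 24 h the slide medians were -0.70 and -0.80, and 3 and 7 members had already passed -1 on that slide. At 6 h the slides differed more, at -0.42 and -0.10. When the limits were applied to slide 1 alone they gave 78 of the 2191 probes. Their medians on slide 2 were -0.81 at 24 h and -1.31 at 65 h. All 78 were below naive at 65 h there, where 49.4% of the 693 tested probes were, and 55 were at or below -1. At 24 h 18 of the 78 were already at or below -1 there. Applied to slide 2 alone they gave 62 probes, whose medians on slide 1 were -0.71 and -1.27. Of these 56 were below naive at 65 h, where 51.2% of tested probes were, and 40 were at or below -1. At 24 h 9 of the 62 were already at or below -1 there. The slides shared 38 of these probes, which is 48.7% of the first list and 61.3% of the second. Both lists were chosen and read in the same groups, whose arrays may be technical repeats, so they are no independent support. The lists were drawn from all 2191 probes, and the 693 are only the tested ones.

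The size of the decline depended on the scale. On the scaled scanner signal, which has background subtracted, the median member differed from naive by -0.75 at 24 h and -1.09 at 65 h, and the median of the 882 tested probes was 0.59 at 65 h. There 36 members were at or below -1 at 65 h, and 8 were at or below -1 already at 24 h. The 16 members with a mean value table level under 6 had median 65 h differences of -1.15 in the value table and -1.56 on the scanner signal, and 3 of them were detected on all 14 arrays. The 11 members with a mean level of 10 or over had -1.72 and -1.36. In this bulk RNA, fewer cells that hold a microRNA and less of it per cell cannot be told apart. Each array took 50 ng of RNA, so both sets of values are per amount of RNA and do not measure microRNA per cell. Scaling to a percentile also removes a change in total microRNA per amount of RNA from the scanner values. What the value table keeps of that change is unknown.

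Arrays that the rule did not use also read low for the members relative to all tested probes. The 42 h, day 7 and restimulated arrays were compared with the mean of the 6 h and 12 h arrays, so that no naive, 24 h or 65 h array entered a difference. Counts are of members past a Benjamini-Hochberg adjusted p of 0.05 in limma over all 882 tested probes. The median of all tested probes under this scaling lay 0.24, 0.17 and 0.34 log2 above the 6 h and 12 h mean in the 3 comparisons, so directions are relative to that shift. Normexp background correction was run with an added offset of 50, where the median spot brightness was 21 to 23 on these arrays. With it the members' own median lay above 0 at 42 h and at day 7. The part of this offset in the differences of dim probes was not tested. At 42 h and day 7 the fit had 1 array, so the SE and p there take the spread from the other groups and assume that the lone array varies like them.

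At 42 h 10 members fell below the 6 h and 12 h mean and 0 rose, where 7.03% of all tested probes fell and 14.3% rose. The median member differed by -0.72 log2 (lowest -2.35, highest 0.56), and 58 of the 62 lay below the median of all tested probes. Of the 10 that fell, 6 were not well above background on the 42 h array. For these the fit gives no size, only a bound. UCSF033_000495 was at least 2.56-fold lower (limma adjusted p = 0.0348). This bound sets its mean on the bright arrays against the lowest signal called above background on the dim array, or its own if higher. UCSF033_001362 was at least 2.53-fold lower by the same measure (limma adjusted p = 0.0157). Of the other 4, picked by being dim and not by the naming rule, UCSF033_000491 was at least 2.41-fold, UCSF033_000740 1.15-fold and UCSF033_000880 1.07-fold lower, and UCSF033_000875 had a bound under 1, so no fold. With normexp background correction and its offset UCSF033_000495 and UCSF033_001362 turned to 0.65 and 0.71 log2. The part of the offset in these signs was not tested. With all 15 arrays UCSF033_001362 turned to 0.45. The value table levels of UCSF033_001362 at 6 and 12 h were 5.93, 6.61, 5.65 and 6.24, and at 42 h 5.15 and 4.88, with no overlap. In the value table both 42 h arrays lay below all 4 arrays of 6 h and 12 h for 48 members, where 31.0% of the 693 tested probes did. With the slide as a block the count was 27, and the value table gave 24. It was 1 with all 15 arrays, 5 without the second 6 h array or without either 24 h array, and 6 without the second 12 h array. Within slides the median member differed by -0.73 on slide 1 and -0.88 on slide 2 in the value table.

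In restimulated cells 19 members fell below the 6 h and 12 h mean and 0 rose, where 11.0% of all tested probes fell and 20.2% rose. Their falls ran from -0.72 to -2.42 log2, with adjusted p from 0.000403 to 0.0473, and all 19 were lower on both slides. The median over the 62 was -0.70, and 60 lay below the median of all tested probes. UCSF033_001360 fell by 2.05 log2 (SE 0.22, limma adjusted p = 0.000403), and its slides gave -2.06 and -2.04, with 1 of its 2 restimulated arrays at background. UCSF033_001362 fell by 2.42 log2 (SE 0.28, adjusted p = 0.000582), also with 1 of 2 at background. Of the 19, 6 were so, and 13 were detected on both restimulated arrays. The size of a fall to background depends on the floor set under the signal: with the floor raised to 2 times the log2 differences of UCSF033_001360 and UCSF033_001362 were -1.49 and -1.45, and with normexp they were -0.03 and -0.13, past no threshold. Bright members were among the 19 too: UCSF033_000517 fell by 1.34 log2 (SE 0.36, adjusted p = 0.0255), UCSF033_000746 by 1.01 (SE 0.24, adjusted p = 0.0143) and UCSF033_000403 by 1.09 (SE 0.35, adjusted p = 0.0473). The 19 held 6 of the 10 members that fell at 42 h.

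In the value table both restimulated arrays lay below all 4 arrays of 6 h and 12 h for 42 of the 62, where 22.7% of the 693 tested probes did. The count of 19 became 37 with the slide as a block (36 lower and 1 higher). It became 1 with all 15 arrays, 7 when the first restimulated array was left out and 11 when the first 6 h array was. Leaving out the second array of either 6 h or 12 h gave 12. Within slides the median member differed by -0.65 on slide 1 and -1.14 on slide 2 in the value table. So the direction was shared by the slides, and the number past the threshold moved with single arrays.

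At day 7, after rest in IL-2, few members passed the test. Against the 6 h and 12 h mean 2 members fell and 0 rose at day 7, where 2.61% of all tested probes fell and 5.67% rose, so the members' share of calls (3.23%) was near that of all probes. These were UCSF033_001362, not well above background at day 7 and at least 3.68-fold lower (limma adjusted p = 0.00489; 1 array against 4), and UCSF033_001360, which fell by 1.59 log2 (SE 0.28, adjusted p = 0.00982). With normexp and its offset these turned to 0.045 and 0.20 log2. The median member differed by -0.51 and 51 of the 62 lay below the median of all tested probes. The day 7 array lay below all 4 arrays of 6 h and 12 h in the value table for 47 members, where 34.6% of tested probes did. With the slide as a block 11 were lower and 1 higher, and with all 15 arrays 0. Within slide 1, the slide of the day 7 array, the median member of the value table differed by -0.52.

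Relative to naive, day 7 levels in the value table ran from -2.14 to 0.37 log2, and the rule cut the 65 h range off at its upper end (-2.16 to -1.01). The day 7 value exceeded the 65 h mean for 49 members, and was at least 1 log2 above it for 10. Those 10 had a median of -0.37 from naive at day 7 and -1.58 at 65 h. In 13 members the day 7 value was at or below the 65 h mean, with a median of -1.44 from naive. The 65 h values were used by the rule, so the 49 carry no test. Day 7 levels lay above both 65 h arrays for 37 members, where 37.5% of tested probes did so, and below both for 5, where 30.7% did.

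The day 7 value stood further above the 65 h mean in bright members. The 11 members with a mean level of 10 or over had medians of -1.72 at 65 h and -0.84 at day 7 relative to naive, and the 16 with a mean level under 6 stood at -1.15 and -1.09. These level classes were chosen after the values were seen, and the part of signal level in the difference was not tested. In the value table UCSF033_001152, UCSF033_000820 and UCSF033_001147 were the 3 members above their naive mean at day 7. They were named after their values were seen, and on the scanner signal 8 members lay above naive at day 7. UCSF033_001152 read 11.61 and 11.45 on the naive arrays, 10.05 and 10.30 at 65 h, 11.68 at day 7, and 10.42 and 10.28 after restimulation. UCSF033_000820 read 8.46 and 8.40, then 7.46 and 7.30, then 8.80, then 7.55 and 7.96 in the same order. UCSF033_001147 read 7.69 and 7.65, then 6.27 and 6.51, then 7.99, then 6.55 and 7.27. In all 3 the day 7 array lay above every 65 h and restimulated array.

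Rested cells stimulated again for 18 h were compared with the single day 7 array, so there was no spread between day 7 arrays. Calls past the threshold, or their absence, therefore say little about the members here. The median member differed by -0.17 log2 on the scanner signal, and the median of all tested probes was 0.06. Of the 62 members 37 were below 0, where 41.6% of all tested probes were. In the value table both restimulated arrays lay below the day 7 array for 32 members, where 31.3% of tested probes did, and above it for 13, where 32.9% did. With the slide as a block, the value table put UCSF033_000329 lower by -1.12 log2 and UCSF033_001152 by -1.24. The day 7 arm is 1 array with its spread taken from the other groups, and UCSF033_001152 is also among the 3 members picked for a high day 7 value. That setting was added, and UCSF033_000329 named, after the values were seen. Of the 10 members with the largest rebound at day 7, 9 had a restimulated mean below the day 7 value, but they were picked by a high day 7 value, which favours that direction.

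Relative to naive, restimulated members had a median of -1.21, and 42 of 62 were at or below -1. Both those and the 65 h differences share the naive arrays. The median was -1.45 at 65 h, -1.04 at day 7 and -1.21 after restimulation.

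Between 6 h and 12 h 0 members passed the threshold in limma, and so did 0 of all 882 tested probes. An unadjusted p under 0.05 was seen in 0 members and in 24 of the 882, 3 of them lower. The median member was lower at 12 h by -0.20 log2 on the scanner signal, with 52 of 62 below 0, where 45.9% of all tested probes were. Both 12 h arrays lay below both 6 h arrays for 12 members in the value table, where 13.0% of tested probes did so. On slide 1 the 12 h minus 6 h median was -0.06 and on slide 2 -0.23. The median SE of a single member was 0.36 log2.

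Probes that were already at or below -1 at 24 h showed larger differences in the same direction. There were 50 of them outside the list that the rule leaves out, of which 44 were also at or below -1 at 65 h. In the value table these 44 had medians of -0.30 for 12 h minus 6 h, -1.36 at 42 h, -1.29 at day 7 and -1.54 in restimulated cells against the 6 h and 12 h mean. The 62 members had -0.13, -0.83, -0.75 and -0.86. The difference between these sets was not tested. Restimulated minus day 7 had medians of -0.47 in the 44 and -0.13 in the 62.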

How the data were processed

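The authors deposited, per the file headers, 1-colour scanner intensity for 15665 spots an array which the software (Feature Extraction 10.1.1.1 in the headers, 10.6 in the submitters' processing notes) had freed of background. They also deposited a value table of log2 values, for whose making the sources used here give no steps. Column medians of 4.38 to 4.41 were alike across arrays, and its centring is unknown. Control spots and outlier spots were left out, and spots of a probe were averaged. A probe was detected when over 50% of its spots were well above background. Scaled signal was floored at 0.583% of the 75th percentile before log2. limma 3.58.1 in R 4.3.3 fitted group means over 14 arrays (6 residual degrees of freedom), checked on simulated data. There it recovered 34% of changes of 1 log2 and 82% of changes of 2 log2 in restimulated cells. At 42 h it recovered 13% and 56%, so a missing call says little. The members, lists, arrays and tests were chosen with earlier results of these data known. Named probes: the 2 lowest at 65 h, the 2 highest in naive cells, the 2 on each side of each limit, and the 2 largest changes a direction past the threshold. Lists of miRNA names and cell markers were not used here, since no table names the probes. Alternatives changed scaling, floor, filter, slide, arrays and value source.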

Additional observations from a re-analysis of the deposited data

How the results depend on the processing

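Single arrays and scalings moved the counts of members called. At 42 h, day 7 and restimulation, against 10, 2 and 19, they were 1, 0 and 1 with all 15 arrays, and 0, 0 and 3 with normexp on the median spot signal. They were 1, 0 and 12 over probes detected on all arrays, and 27, 12 and 37 with the slide block. The value table with the slide block (chosen after the data were seen) gave 39, 9 and 43, and 2 for restimulated minus day 7. The percentile over all probes gave 19 at 42 h and 33 in restimulated cells. There the calls over all tested probes were 86 of 142 lower at 42 h, against 62 of 188, and 131 of 212 lower in restimulated cells, against 97 of 275. No filter gave 3 and 6, and 12 h arrays alone as reference 2 and 8. No scaling gave 0 at day 7 and 8 in restimulated cells, trend and robust fitting 6 at 42 h, and the value table at 42 h gave 24. The value table without the first 42 h array, also added later, gave 1 at day 7. Leaving out each array in turn gave 5 to 15, 2 to 3 and 7 to 20. Restimulated minus day 7 was 0 and 12 h minus 6 h was 0 each time. The number of members was 26 with 65 h at or below -1.5, 10 with 24 h within 0.5, and 80 on scanner values, which held 28 of the 62. With normexp (offset 50) UCSF033_000495 and UCSF033_001362 turned to 0.65 and 0.71 at 42 h, and UCSF033_001362 and UCSF033_001360 to 0.045 and 0.20 at day 7. With all 15 arrays UCSF033_001362 turned to 0.45 at 42 h. Of 164 values of named members under alternatives 131 kept direction and call, 28 lost the call and 5 reversed. The cause was not tested. Relative to all tested probes, the members' median stayed below under each of these settings, by 0.58 to 1.23 log2 at 42 h, 0.44 to 0.88 at day 7 and 0.65 to 1.18 in restimulated cells. The members' own median lay above 0 with normexp at 42 h and at day 7, and in 0 settings in restimulated cells. Dim members limit precision, since 15 of the 62 were at background on at least 1 array. The labels carry no replicate numbers, so the slide block, which pairs the arrays that share a slide, was the one paired fit.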

Other observations

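Some members had adjacent probe numbers on the design's list. Of the 62, 23 had another member of adjacent number, in 12 adjacent pairs. The matching share over all probes was not worked out. Another 91 probes of the value table lay next to a member by number and were not members, 49 of them among the tested probes. Their median 65 h difference was -0.03, and 9 were at or below -1. Over the 15 arrays the value table levels within these pairs correlated at r = 0.853 to 0.995 (median 0.970), as levels chosen for one shared course would in part do, and their 65 h differences were apart by a median of 0.25 log2 and at most 0.43. The files used here do not say whether such pairs target one microRNA, so the 62 may stand for fewer microRNAs.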
